A study of Mus musculus with 23 samples.

Results

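Collagens are the structural proteins of the extracellular matrix, each built from 3 chains wound into a triple helix. The fibrillar collagens form the fibrils of the interstitial tissue, the type IV collagens form the network of the basement membrane under the colonic epithelium, and the remaining collagens sit on fibrils, make beaded filaments, anchor the basement membrane or span the cell membrane. In the colon most collagen is made by fibroblasts and smooth muscle cells rather than by epithelial cells. The members were every row of the count table whose symbol has the form of a mouse collagen chain gene (Col, a type number, a, a chain number), and 44 of the 24917 gene loci matched: 11 fibrillar, 6 type IV and 27 other collagen genes.

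The RNA came from the colonic epithelium of male C57BL/6 mice (C57BL/6J in the study's methods), freed from the whole colon with EDTA, in 23 samples. Mice were 6 weeks old when the diets began. LF mice received a diet with 10% fat for 43 weeks, HF mice a diet with 60% fat for 43 weeks, and HFLF mice the 60% diet for 15 weeks and then the 10% diet for 28 weeks, so that HFLF is a weight-loss regimen. Batch 1 held 4 LF, 3 HF and 4 HFLF samples and batch 2 held 4 LF, 3 HF and 5 HFLF samples. The labels do not state that every sample is a separate mouse. The study's methods give fewer mice per regimen than there are samples of a diet over both batches, so samples of different batches may share mice. The p-values then measure only the spread between these samples. The comparisons asked whether collagen expression differed under the high-fat diet and whether it did so after the return to the low-fat diet.

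The promoters of 3 member genes are shown first, because Col16a1 and Col8a1 were the collagen genes that passed the test between HF and LF samples and Col4a1 and Col4a2 are transcribed away from a shared start region. For 35 of the 44 genes RefSeq (GRCm38.p6, the coordinates of mm10) gave a promoter, in 38 windows of 250 bases before the transcription start. Capitals mark a GC box (GGGCGG or CCGCCC) or a CCAAT box (CCAAT or ATTGG). The Col16a1 window is chr4:130047590-130047839 on the plus strand, the Col8a1 window is chr16:57754738-57754987 on the minus strand, and the Col4a2 stretch is chr8:11312755-11312784 on the plus strand.

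Col16a1: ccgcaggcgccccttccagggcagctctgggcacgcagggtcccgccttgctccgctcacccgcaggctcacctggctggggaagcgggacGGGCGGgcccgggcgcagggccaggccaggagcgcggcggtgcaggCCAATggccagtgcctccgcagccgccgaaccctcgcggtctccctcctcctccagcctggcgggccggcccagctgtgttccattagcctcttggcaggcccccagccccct

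Col8a1: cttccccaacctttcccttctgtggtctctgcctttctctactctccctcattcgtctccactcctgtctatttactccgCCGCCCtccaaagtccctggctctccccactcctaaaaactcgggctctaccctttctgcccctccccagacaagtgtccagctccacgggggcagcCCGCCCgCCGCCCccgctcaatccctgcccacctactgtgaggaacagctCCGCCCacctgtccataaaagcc

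Col4a2: cgCCGCCCgaggagctccCCAATttgttgg

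Both strands were searched. A GC box stood in 22 of the 38 collagen windows and in 32.7% of all 32851 windows, and a CCAAT box stood in 13 and in 33.8%. The Col16a1 window held 1 GC box and 1 CCAAT box, and the Col8a1 window held 4 GC boxes and no CCAAT box. A TATA box (TATAAA) stood in 5 collagen windows and in 12.4% of all windows, and an AP-1 motif (TGANTCA) in 1 and in 6.75%. Neither of these was found in the windows of Col16a1, Col8a1 or Col4a2. The Col4a1 locus (chromosome 8, 11198423 to 11312826, minus strand) and the Col4a2 locus (chromosome 8, 11312829 to 11449287, plus strand) start 3 bases apart in mm10, and the printed stretch lies within the Col4a1 locus. A match of letters is a description and shows no binding.

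Collagen transcripts were a small part of these libraries. All 44 genes together took between 0.00488% and 0.0203% of the counts of a sample (median 0.0123%). Reads counted on genes numbered 29189922 to 46498521 per sample in batch 1 and 31607019 to 65320947 in batch 2, and 3 counts corresponded to 0.0459 to 0.103 CPM. CPM is the usual depth-scaled count of a gene, with the library size of each sample multiplied by a TMM factor estimated within its batch. edgeR's expression filter kept 29 collagen genes in batch 1 and 30 in batch 2. The 14 genes that passed in neither batch had between 2 and 159 counts over all 23 samples, and among them were Col2a1, the cartilage fibril gene, with 9 counts, and Col10a1, with 2. Col17a1, a hemidesmosomal transmembrane collagen, was the gene tested only in batch 2.

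The highest levels were not those of the fibrillar genes. Per exon length, Col16a1 had the highest mean over the 23 samples (5.35 RPKM, the CPM divided by exon length in kilobases), followed by Col8a1 (3.45 RPKM), Col20a1 (1.75 RPKM) and Col3a1 (0.940 RPKM). Col16a1 and Col20a1 encode fibril-associated collagens and Col8a1 a short-chain collagen of subendothelial and basement membrane networks. Col6a1, a chain of the beaded type VI filament, stood at 0.585 RPKM and Col1a1, a chain of type I collagen, at 0.502 RPKM. Col18a1 (0.428 RPKM), Col4a1 (0.422), Col1a2 (0.345), Col7a1 (0.334) and Col4a2 (0.325 RPKM) were close behind. In CPM, which does not correct for length, Col16a1 held 29.4% and Col8a1 22.0% of the summed mean of the family.

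**Figure D1:**
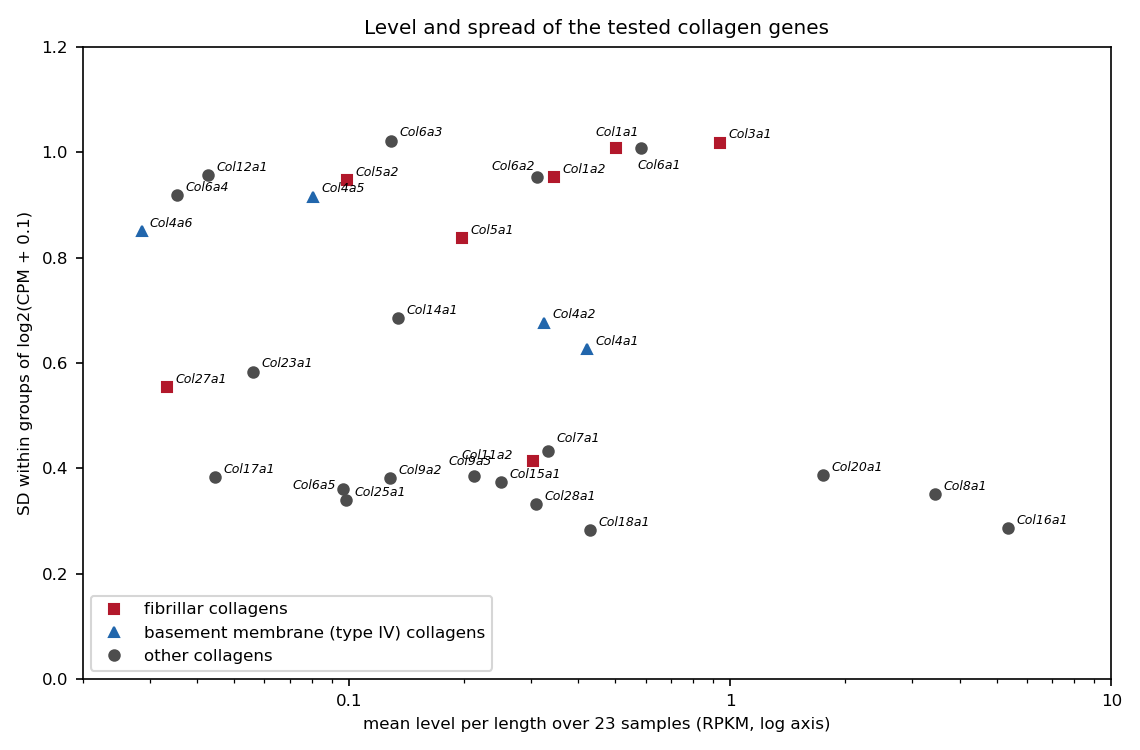
Mean level per exon length over 23 samples (RPKM, log axis) against the SD of log2(CPM + 0.1) within the 6 groups of diet and batch, for the 30 collagen genes tested in either batch, marked by class. Col16a1, Col8a1 and Col20a1 stand at high level and low spread, while Col3a1, Col1a1 and Col6a1 have an SD near 1.

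Replicates of the same group differed far more for some members than for others. The SD of log2(CPM + 0.1) within groups was 0.29 for Col16a1, 0.28 for Col18a1, 0.35 for Col8a1 and 0.34 for Col25a1, but 1.02 for Col3a1, 1.01 for Col1a1, 1.01 for Col6a1 and 0.96 for Col12a1, a fibril-associated gene. Its median was 0.95 over the 7 tested fibrillar genes, 0.76 over the 4 tested type IV genes and 0.39 over the 19 other genes. Across the 23 samples Col1a1 spanned a 42.9-fold range and Col16a1 a 2.51-fold range. Chains that assemble together had a narrower range of ratios than of levels. The RPKM of Col1a1 was between 0.631 and 2.30 times that of Col1a2 (median 1.43), and that of Col4a1 was between 0.836 and 2.70 times that of Col4a2 (median 1.24).

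A few libraries stood apart. In batch 1, HF replicate 3 had the lowest level of all 11 samples in 25 of the 29 tested collagen genes, and HFLF replicate 2 had the highest in 21. In batch 2, HF replicate 2 was the lowest of 12 samples in 18 of 30 genes and LF replicate 3 the highest in 14. Smooth muscle and fibroblast markers varied with them. The summed level of 8 smooth muscle markers (Acta2, Myh11, Des, Tagln, Cnn1, Actg2, Myl9 and Lmod1) was 0.541 CPM in HF replicate 3 of batch 1 and 54.8 CPM in HFLF replicate 2 of batch 1. Acta2, Myh11, Des and Tagln had counts in every sample, and Lmod1 was at 0 in 7. The summed level of 10 fibroblast markers was 14.2 CPM in HF replicate 3 of batch 1 and between 18.6 and 37.2 CPM elsewhere, whereas 8 epithelial markers (among them Epcam, Cdh1 and Krt20) summed to between 12068 and 16416 CPM in every sample. The summed immune markers did not follow the collagens in these libraries of batch 1. They stood at 28.1 CPM in HF replicate 3 and at 28.4 CPM in HFLF replicate 2. In bulk samples, fewer cells of a type and less RNA per cell cannot be told apart.

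**Figure D2:**
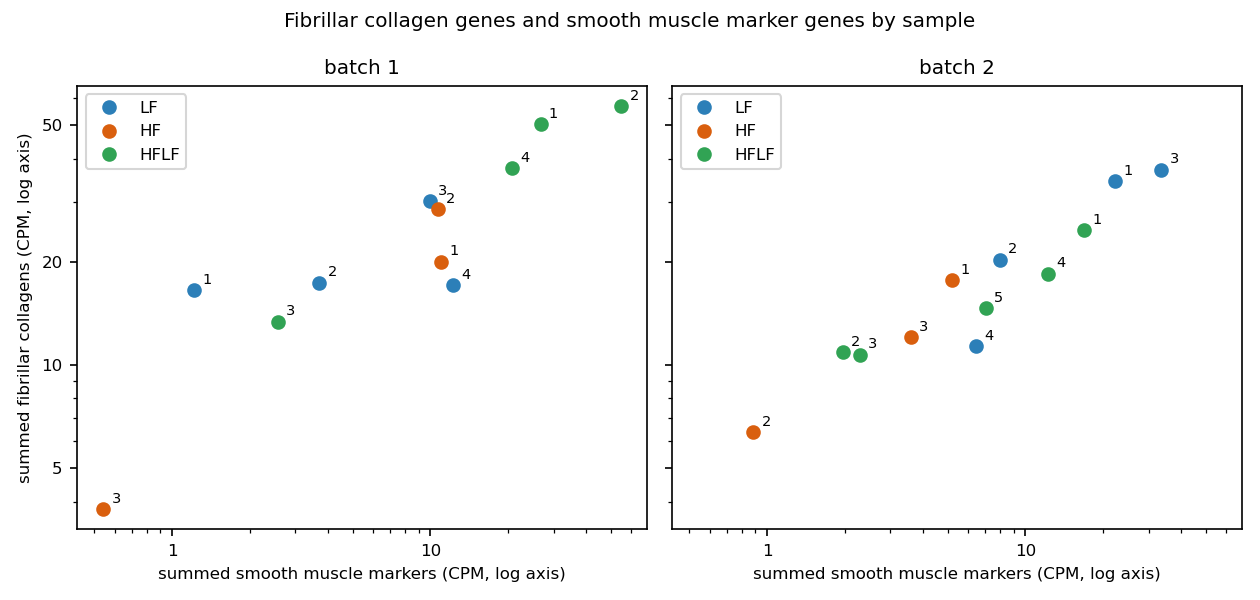
Summed CPM of the 11 fibrillar collagen genes against summed CPM of the 8 smooth muscle markers in each sample of batch 1 (left) and batch 2 (right), both on log axes; numbers are replicates and colours are diets. HF replicate 3 in batch 1 (3.81 and 0.541 CPM) and HF replicate 2 in batch 2 (6.37 and 0.884 CPM) lie at the lower left, and HFLF replicate 2 in batch 1 (56.9 and 54.8 CPM) at the upper right.

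Between HF and LF samples of batch 2, Col8a1 and Col16a1 fell, and no collagen gene rose. These were 2 of 30 tested collagen genes (6.67%), beside 7.44% of all 14377 genes tested that were called in either direction and 4.4% that were called lower. The call asks for a fold above 1.2 and, in edgeR's quasi-likelihood test, a p under 0.05 after Benjamini-Hochberg adjustment over every gene tested. A share near that of all genes is no result about the family.

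Col8a1 stood at 42.1, 40.0, 40.1 and 41.0 CPM in the LF samples of batch 2 and at 23.8, 14.1 and 27.6 CPM in the HF samples. The HF samples all lay below its LF samples, which were nearly alike (40.8 ± 0.967 CPM, SD, n = 4). The log2 fold change was −0.89 ± 0.20 (SE, edgeR adjusted p = 0.0293). Col16a1 stood at 46.5, 44.9, 38.8 and 35.0 CPM in the LF samples and at 33.4, 27.5 and 26.1 CPM in the HF samples. These groups did not overlap either, with a log2 fold change of −0.51 ± 0.12 (edgeR adjusted p = 0.0345). Over all tested genes 13.5% had HF samples that all lay below the LF samples, and 4 of 30 collagen genes did, the others being Col25a1 and Col23a1, both transmembrane collagens. The calls changed with the set of samples: 0 collagen genes were called without LF replicate 1, LF replicate 3, HF replicate 2 or HF replicate 3, 1 (Col8a1) without LF replicate 2, 5 without HF replicate 1 and 9 without LF replicate 4. DESeq2 called 5, namely Col14a1, Col16a1, Col25a1, Col5a1 and Col8a1.

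**Figure D3:**
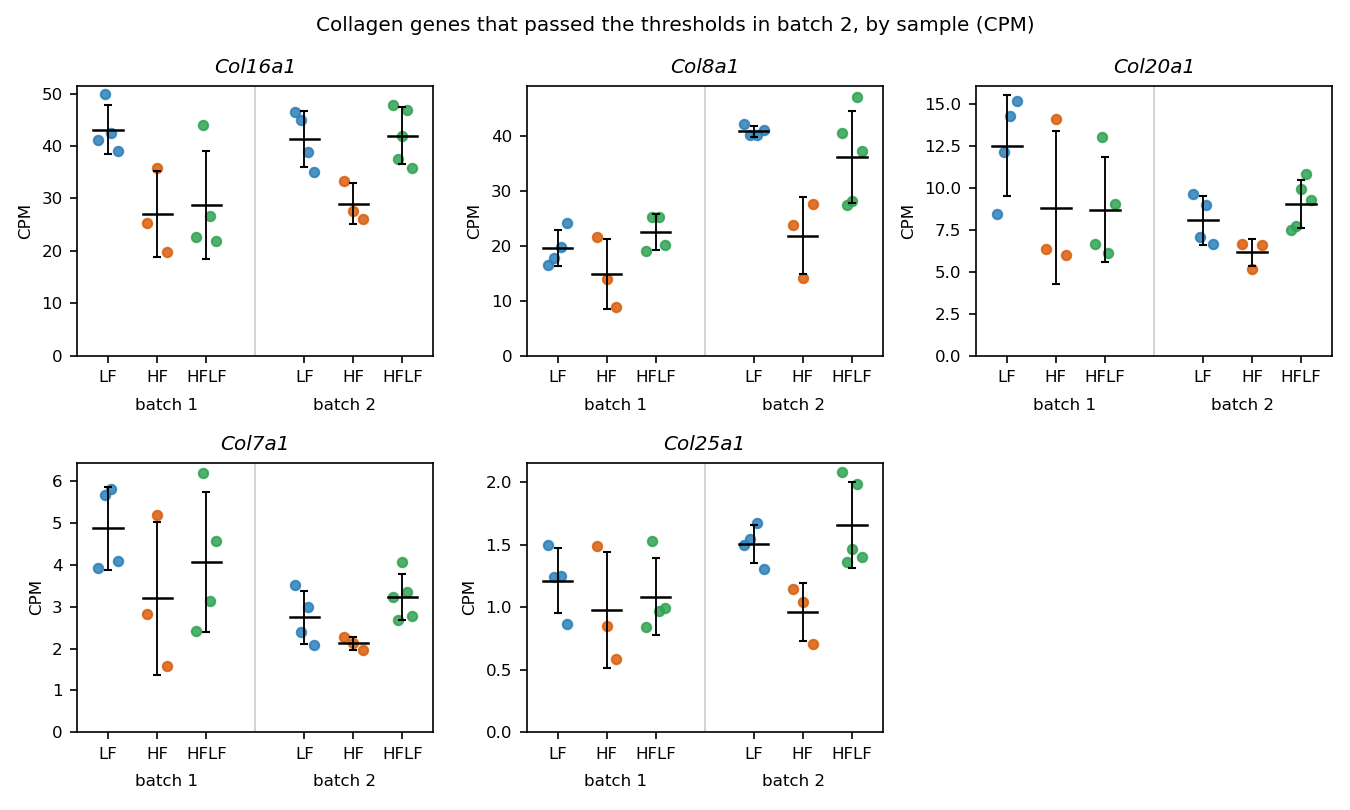
CPM of the 5 collagen genes called within batch 2, in every sample by diet and batch; points are samples, horizontal lines are group means and bars are SD. In batch 2 all HF samples of Col16a1 and Col8a1 lie below all LF samples, and all HFLF samples of Col16a1, Col20a1, Col7a1 and Col25a1 lie above all HF samples.

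The remaining members of batch 2 were mostly lower in HF samples without passing the test. The log2 fold change was under 0 for 28 of 30 collagen genes, beside 52% of all genes, and its median was −0.83, beside −0.01 over all genes. At an unadjusted p under 0.05, 11 collagen genes were lower, beside 17.1% of all genes. These are counts over genes that share the same 7 samples and are not independent. Their median log2 fold change stood at −1.10 for the fibrillar, −0.95 for the type IV and −0.51 for the other collagens. Without HF replicate 2 the median was −0.61, and without LF replicate 3 it was −0.59.

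Col3a1, the chain of type III collagen, had 14.9, 7.97, 16.2 and 3.87 CPM in batch 2 under LF and 6.98, 2.13 and 4.74 CPM under HF. The groups overlapped, and LF replicate 4 lay under 2 of the 3 HF samples, and the log2 fold change was −1.20 ± 0.49 (edgeR adjusted p = 0.111). Col1a1 stood at 6.21, 3.41, 6.33 and 1.76 CPM in LF and at 2.27, 0.702 and 1.76 CPM in HF samples, a log2 fold change of −1.45 ± 0.48 (edgeR adjusted p = 0.0628). For its partner chain Col1a2 the value was −0.98 ± 0.46 (edgeR adjusted p = 0.154). Among the basement membrane chains, Col4a1 stood at 5.05, 2.60, 6.33 and 2.40 CPM in LF and at 3.40, 1.74 and 1.99 CPM in HF samples. LF replicates 1 and 3 were high for Col4a1 as they were for Col3a1 and Col1a1, and its log2 fold change was −0.77 ± 0.39 (edgeR adjusted p = 0.180). Col4a2, whose product assembles with that of Col4a1, gave −0.90 ± 0.44 (edgeR adjusted p = 0.167). These calls also turned on single libraries. Without LF replicate 4, Col1a1 and Col3a1 were called (edgeR adjusted p = 0.0169 and 0.0312), and without HF replicate 1, Col4a2 was called (−1.65, edgeR adjusted p = 0.0467), whereas without HF replicate 2 its value was −0.56.

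Smooth muscle markers moved with these genes. In batch 2 their sum was 22.2, 7.97, 33.5 and 6.43 CPM under LF and 5.22, 0.884 and 3.59 CPM under HF. All 8 markers were tested, 1 (Actg2) fell, 7 were lower at an unadjusted p under 0.05, and the median log2 fold change was −2.31. For the 10 fibroblast markers the median was −0.24, with 0 called, and for the 8 epithelial markers it was 0.10, with 0 called. The endothelial markers summed to 13.2 to 20.3 CPM in LF (median 17.8) and to 12.8 to 14.9 CPM in HF samples (median 12.9). The immune markers summed to 19.0 to 24.7 CPM (median 20.1) and to 18.6 to 21.5 CPM (median 21.3). The part of these cell types in the collagen values was not tested.

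**Figure D4:**
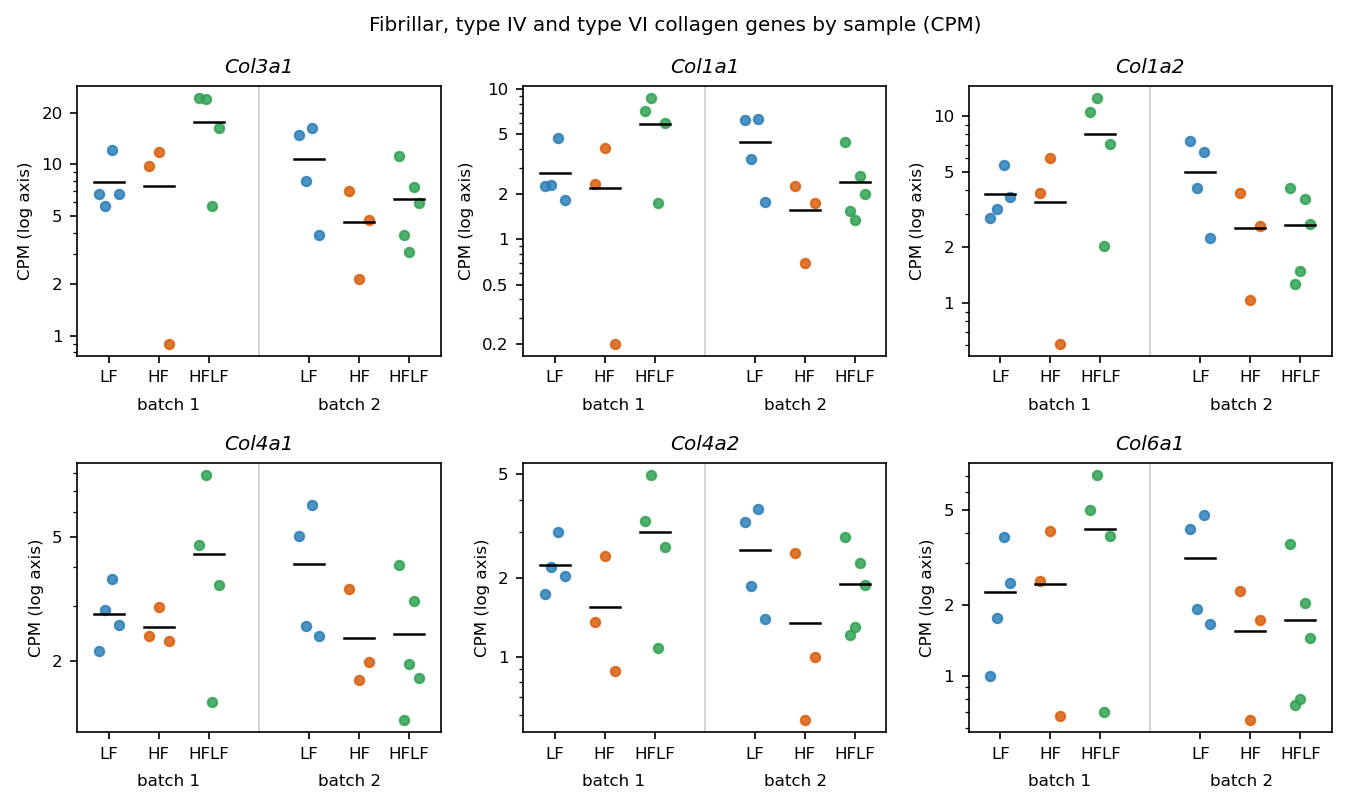
CPM of 3 fibrillar genes (Col3a1, Col1a1, Col1a2), 2 type IV genes (Col4a1, Col4a2) and Col6a1 in every sample by diet and batch, on log axes; horizontal lines are group means. In batch 1, HF replicate 3 lies lowest for Col3a1, Col1a1 and Col1a2, and the HFLF samples run from 5.70 to 24.2 CPM for Col3a1.

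In batch 1 no collagen gene passed the test between HF and LF samples, and neither did any of the 14428 genes tested (0%). At an unadjusted p under 0.05, 1 collagen gene was lower, beside 10.2% of all genes, and DESeq2 called 0 collagen genes. That gene was Col16a1, which stood at 41.2, 49.9, 42.4 and 39.0 CPM in LF and at 25.3, 35.9 and 19.9 CPM in HF samples. The groups did not overlap (lower in this way: 7.33% of all genes), and the log2 fold change was −0.68 ± 0.24 (edgeR adjusted p = 0.168). Without HF replicate 2, Col16a1 was called. Col11a2, a minor fibrillar chain, gave −0.64 ± 0.31 (edgeR adjusted p = 0.242), and Col8a1 gave −0.40 ± 0.24 (edgeR adjusted p = 0.322), with 16.6, 17.7, 19.8 and 24.1 CPM in LF and 21.7, 14.0 and 8.88 CPM in HF samples.

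The family median of batch 1 turned on HF replicate 3. The log2 fold change between HF and LF samples was under 0 for 25 of 29 collagen genes (median −0.31), beside 50.5% of all genes. Without HF replicate 3 the median was 0.08, with 13 genes under 0, and without LF replicate 3 it was −0.14, with 19 under 0. Col3a1 stood at 6.68, 5.74, 12.2 and 6.73 CPM in LF and at 9.71, 11.8 and 0.901 CPM in HF samples. HF replicates 1 and 2 thus lay above 3 of the 4 LF samples and HF replicate 3 far below them, and the log2 fold change was −0.08 ± 0.62 (edgeR adjusted p = 0.948). The smooth muscle markers summed to 11.0, 10.7 and 0.541 CPM in these HF samples and to 1.22, 3.71, 9.93 and 12.3 CPM in LF samples. Their median log2 fold change was 0.19, with 5 of 7 tested above 0. Other marker lists had medians under 0. These were −0.49 for the endothelial genes (4 of 5 under 0) and −0.35 for the immune genes (7 of 8 under 0). For the fibroblast genes the median was −0.10 (5 of 10 under 0), and for the 8 epithelial genes it was 0.04. No gene of these lists was called. The part of these markers was not tested.

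Between HFLF and HF samples of batch 2, 5 collagen genes rose and none fell in edgeR's test, namely Col16a1, Col8a1, Col20a1, Col7a1 and Col25a1, all of the class of other collagens. They were 16.7% of the 30 tested genes, beside 14.5% of all genes called in either direction and 8.89% called higher. Col16a1 stood at 47.8, 37.6, 42.0, 46.8 and 35.8 CPM in HFLF samples, all above the HF samples, with a log2 fold change of 0.53 ± 0.12 (edgeR adjusted p = 0.0153). Col8a1 stood at 40.5, 27.4, 28.1, 47.1 and 37.3 CPM, where 1 HFLF sample lay under the highest HF sample, with a change of 0.72 ± 0.19 (edgeR adjusted p = 0.0258).

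Col20a1 stood at 7.49, 7.75, 9.97, 10.9 and 9.29 CPM in HFLF and at 6.65, 5.20 and 6.62 CPM in HF samples, a log2 fold change of 0.56 ± 0.15 (edgeR adjusted p = 0.0269). Col7a1, which encodes the anchoring fibrils that tie the basement membrane to the stroma, stood at 3.24, 2.68, 4.07, 3.36 and 2.79 CPM in HFLF and at 2.27, 2.13 and 1.97 CPM in HF samples, a change of 0.60 ± 0.18 (edgeR adjusted p = 0.0355). Col25a1, a transmembrane collagen, stood at 2.08, 1.36, 1.46, 1.98 and 1.40 CPM in HFLF and at 1.15, 1.04 and 0.703 CPM in HF samples, a change of 0.79 ± 0.21 (edgeR adjusted p = 0.0258). Among the tested collagen genes, only these 3 and Col16a1 had HFLF samples that all lay above the HF samples, beside 14.6% of all genes. They had already been picked as called, so the separation is no further evidence. Without HF replicate 2, 0 collagen genes were called, without HF replicate 3 or HFLF replicate 4 1 was called, and without HFLF replicate 1 2 were called. Of the 8 fits that each left out 1 sample, the Col7a1 call was lost in 6 and the Col25a1 call in 4. The calls of Col8a1 and Col20a1 were lost in 3 each and that of Col16a1 in 2.

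The fibrillar and type IV genes did not pass this test in batch 2. Col3a1 stood at 11.2, 3.89, 3.08, 7.35 and 5.96 CPM in the HFLF samples, within the range of LF and HF samples together, and its log2 fold change from HF was 0.43 ± 0.47 (edgeR adjusted p = 0.526). For Col4a1 the change was 0.03 ± 0.38 (edgeR adjusted p = 0.961). Over all collagen genes the median was 0.38, with 28 of 30 above 0 beside 51.8% of all genes and 6 higher at an unadjusted p under 0.05 beside 20.3%, and without HF replicate 2 it was 0.09. The smooth muscle markers summed to 16.9, 1.96, 2.29, 12.2 and 7.04 CPM in HFLF samples, with 0 of 8 called (median log2 fold change 1.06). Of the other markers, 2 of 4 tested endothelial genes rose (Vwf by 0.44 and Tek by 0.69, edgeR adjusted p = 0.0366 and 0.0374), and 1 of 7 immune genes rose (Cd3e by 0.94, edgeR adjusted p = 0.0422), with all 7 immune genes above 0. The summed endothelial markers ran from 12.8 to 14.9 CPM in HF and from 16.2 to 17.9 CPM in HFLF samples. The summed immune markers ran from 18.6 to 21.5 CPM and from 22.4 to 25.7 CPM. Neither sum overlapped between the groups, but single genes weighed heavily. Most of the endothelial sum was Vwf, already named as called (7.39 to 8.13 CPM in HF and 9.98 to 11.3 CPM in HFLF samples). Pecam1 overlapped (4.01 to 5.72 and 4.84 to 6.15 CPM). Ptprc, the largest immune value, overlapped as well (8.47 to 12.5 and 10.4 to 13.0 CPM). Of the 8 epithelial genes 6 were under 0, with 0 called and 2 lower at an unadjusted p under 0.05, and of the 10 fibroblast genes 0 were called. The part of these markers in the 5 collagen calls was not tested.

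In batch 1, 0 of 29 collagen genes passed between HFLF and HF samples, beside 0.00693% of all genes (1 gene), and 5 were higher at an unadjusted p under 0.05, beside 4.81% of all genes. DESeq2 called 0 collagen genes there. The log2 fold change was above 0 in 27 of 29 collagen genes, beside 49.3% of all genes, and its median was 0.79, with 1.24 for the fibrillar and 0.91 for the type IV genes. Without HF replicate 3 the median over all was 0.38. Col8a1 had the lowest p: it stood at 19.1, 25.3, 25.3 and 20.2 CPM in HFLF samples, with a change of 0.60 ± 0.24 (edgeR adjusted p = 0.423). Col3a1 stood at 24.2, 24.0, 5.70 and 16.3 CPM, so that HFLF replicate 3 lay below 2 of the HF samples, and its change was 1.24 ± 0.63 (edgeR adjusted p = 0.480). The smooth muscle sum was 26.7, 54.8, 2.56 and 20.7 CPM in the same HFLF samples, low in replicate 3 as Col3a1 was, and its part was not tested. Col6a4, a low type VI chain with 0 to 46 counts in batch 1, gave 1.96 ± 0.86 (edgeR adjusted p = 0.445).

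Between HFLF and LF samples no collagen gene passed in either batch, by edgeR or by DESeq2. Beside them 0% of all genes were called in batch 1 and 0.00696% (1 gene) in batch 2. At an unadjusted p under 0.05, 2 collagen genes were higher and 1 lower in batch 1, beside 2.5% and 2.79% of all genes, and 1 was higher and 5 lower in batch 2, beside 2.15% and 2.5%. The log2 fold change was above 0 in 23 of 29 collagen genes in batch 1, beside 50.3% of all genes, and under 0 in 20 of 30 in batch 2, beside 47.9%. In batch 2 Col16a1 averaged 42.0 ± 5.37 CPM in HFLF (SD, n = 5) and 41.3 ± 5.33 CPM in LF samples (SD, n = 4), with a log2 fold change of 0.02 ± 0.11. In batch 1 its HFLF samples stood at 22.6, 43.9, 26.7 and 21.8 CPM, and 3 of the 4 lay below all LF samples (−0.58 ± 0.22, edgeR adjusted p = 0.792). The fibrillar genes had a median of 1.07 in batch 1 and −0.77 in batch 2. Col3a1 gave 1.16 ± 0.57 and −0.77 ± 0.42 in turn, Col5a1, a regulatory chain of fibril assembly, 0.92 ± 0.55 and −0.96 ± 0.38, and Col12a1 1.64 ± 0.67 and −0.90 ± 0.50. Col4a6, a minor type IV chain with 0 to 37 counts in any sample, gave 1.63 ± 0.88 and −1.60 ± 0.58, and was the collagen gene whose groups did not overlap in batch 2, beside 0.696% of all genes lower in this way. The smooth muscle markers had a median of 2.05 in batch 1 and −1.12 in batch 2, and their part was not tested.

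**Figure D5:**
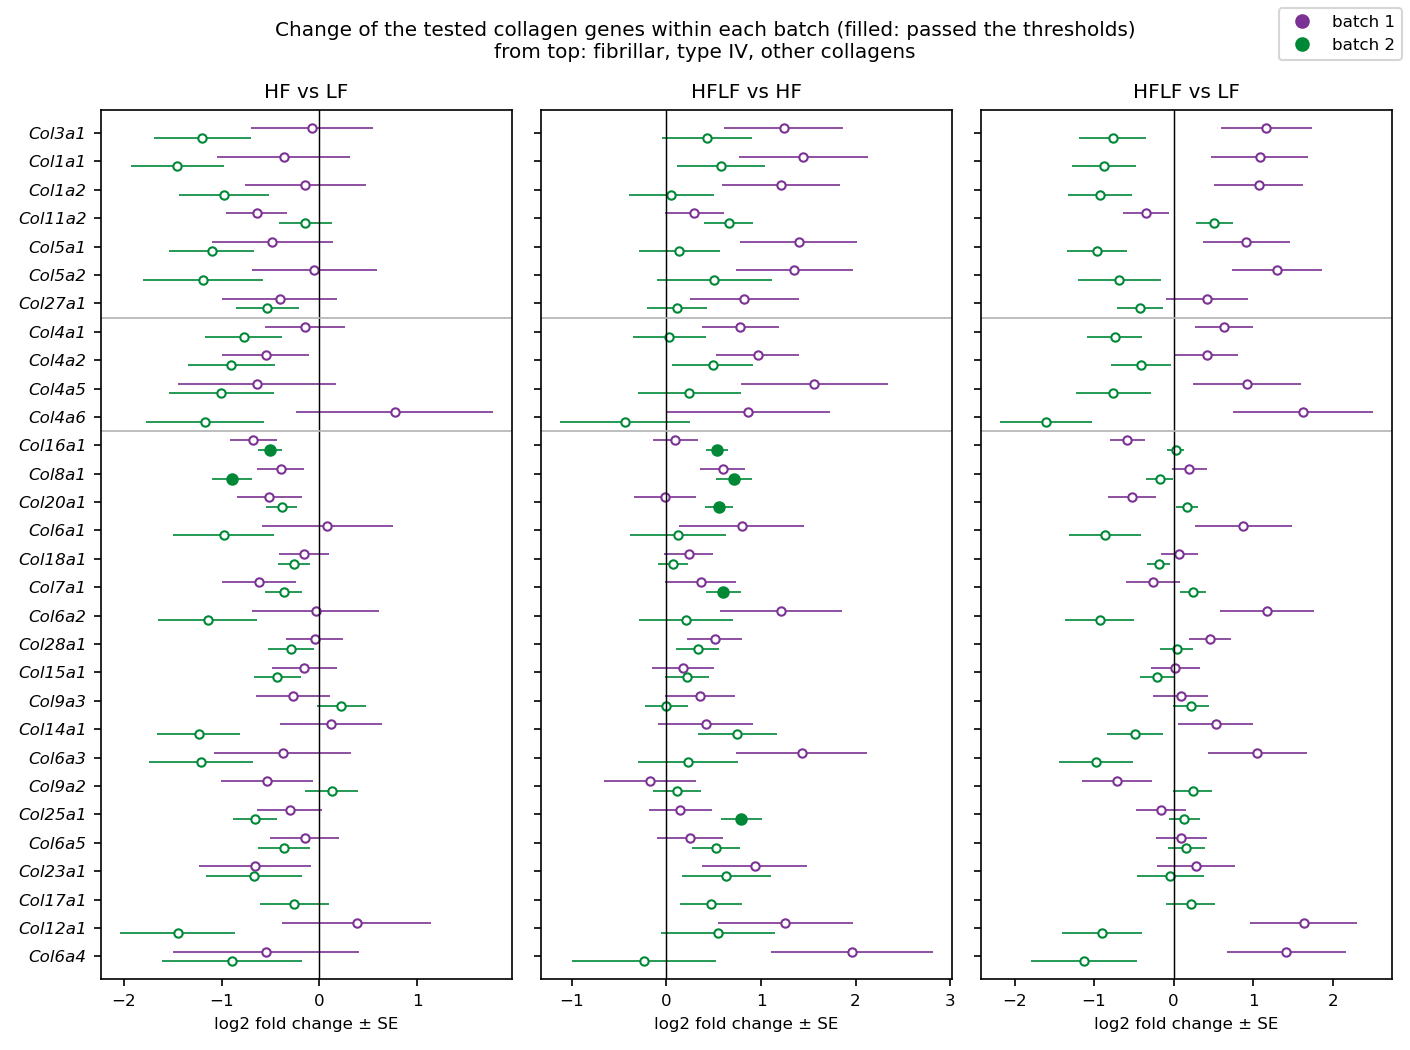
Log2 fold change from edgeR, with an SE derived from its F statistic, for every collagen gene tested, in batch 1 (purple) and batch 2 (green), for the 3 comparisons; filled points passed the thresholds, and lines part fibrillar, type IV and other collagens. Between HFLF and LF samples most fibrillar and type IV genes lie above 0 in batch 1 and below 0 in batch 2, and none passed.

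The difference between the batches was itself tested as an interaction. No collagen gene, and 0 of 14385 genes, passed for HF against LF, and 0 collagen genes had an unadjusted p under 0.05, beside 6.56% of all genes. For HFLF against HF the same counts were 0 and 0, beside 7.68% of all genes at an unadjusted p. The interactions for HFLF were chosen after seeing the data. For HFLF against LF, 0 passed in edgeR or DESeq2, while 12 of 30 collagen genes were lower and 2 higher in batch 2 than in batch 1 at an unadjusted p under 0.05, beside 3.79% and 3.79% of all genes. The median of this difference was −1.94 for the fibrillar genes, −1.54 for the type IV genes and −0.28 for the others. Col3a1 gave −1.94 ± 0.77 (edgeR adjusted p = 0.632) and Col16a1 0.60 ± 0.25 (edgeR adjusted p = 0.638).

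With both batches in 1 fit and batch as a covariate, Col16a1 and Col8a1 fell in HF against LF samples. Their log2 fold changes were −0.60 ± 0.15 (edgeR adjusted p = 0.00968) and −0.65 ± 0.17 (edgeR adjusted p = 0.0107). These p-values treat the samples of both batches as independent, although some may come from the same mice. Col16a1 and Col8a1 were 2 of 30 collagen genes (6.67%), beside 18.1% of all genes called in either direction and 9.11% called lower. The value was under 0 in 30 of 30 collagen genes tested in this fit (median −0.57), beside 51.3% of all genes. Smooth muscle and endothelial markers moved with them: 7 of 7 smooth muscle genes were under 0 (median −1.27, 0 called), and 5 of 5 endothelial genes were under 0 with Vwf called (edgeR adjusted p = 0.00628). Of 10 fibroblast genes Pdgfra was called lower (edgeR adjusted p = 0.0445), and this 1 gene does not stand for the list. Within batch 1, 5 of these 10 genes were above 0 and 5 under 0, and the batch 2 median is given above. Both genes were called in each of the 14 fits that left out 1 LF or HF sample, and 5 collagen genes were called without HF replicate 2 of batch 1. Between HFLF and HF samples Col8a1 rose (0.65 ± 0.17, edgeR adjusted p = 0.0180), 1 of 30 beside 10.3% of all genes (5.44% called higher). Here the value was above 0 in 30 of 30 collagen genes (median 0.53), beside 52.1% of all genes, while 7 of 7 smooth muscle genes (median 1.58, 0 called) and 5 of 5 endothelial genes (Vwf called, edgeR adjusted p = 0.0223) were above 0. The part of these markers in either comparison was not tested. That call was lost without HF replicate 3 of batch 1 or HF replicate 2 of batch 2, each of which left 0. Leaving out HF replicate 2 of batch 1 gave 6 calls among collagen genes, HFLF replicate 1 of batch 1 gave 5, and HF replicate 1 of either batch gave 2. Between HFLF and LF samples 0 passed in edgeR or DESeq2, with 0 at an unadjusted p under 0.05 (4.11% of all genes), and the median was 0.02. The LF means of Col8a1 were 19.6 ± 3.32 CPM in batch 1 and 40.8 ± 0.967 CPM in batch 2 (SD, n = 4 each), on scales set within each batch, and this difference was not tested.

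The other collagens were also read by subgroup. The 5 type VI chains tested, which form beaded filaments, had a median log2 fold change of −0.98 between HF and LF samples of batch 2 (−1.21 for Col6a3 to −0.36 for Col6a5), and none passed. In batch 1 the median was −0.15, with Col6a1 at 0.08, and between HFLF and LF samples it was 1.05 in batch 1 and −0.93 in batch 2, with none called. For Col6a1 the HF against LF value of batch 2 was −0.98 ± 0.52 (edgeR adjusted p = 0.195), and −0.63 without HF replicate 2. The 6 fibril-associated genes ranged from −1.45 for Col12a1 to 0.22 for Col9a3. Col18a1 and Col15a1, the multiplexins of basement membrane zones, gave −0.26 and −0.43, and Col18a1 averaged 3.31 ± 0.313 CPM in LF (SD, n = 4) and 2.76 ± 0.434 CPM in HF samples (SD, n = 3). Col10a1 (0.00234 CPM on average) overlaps Nt5dc1 (31.04 CPM) on the opposite strand by 7105 bases, so its reads are uncertain if strand was not used in counting. Col9a3 (0.818 CPM) overlaps Tcfl5 on the opposite strand by 229 bases, but Tcfl5 averaged 0.00946 CPM.

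Genes that make, process, bind and degrade collagen were read beside the family, with the shares of all genes called given above for each comparison. In batch 2, 1 of 14 tested enzymes of collagen folding and crosslinking rose in HF samples. This was P4ha1, a prolyl hydroxylase subunit, with 20.0 ± 3.93 CPM in LF (SD, n = 4) and 29.5 ± 5.13 CPM in HF samples (SD, n = 3), a log2 fold change of 0.55 ± 0.14 (edgeR adjusted p = 0.0372). In batch 1 its value was −0.42 ± 0.26 (edgeR adjusted p = 0.331). Between HFLF and HF samples of batch 2, 3 passed: P4hb, the other hydroxylase subunit, and Ppib, a prolyl isomerase, fell by 0.30 and 0.34 on the log2 scale, and Fkbp14 rose by 0.41.

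Of 15 tested partners of the fibrils and the basement membrane, 4 fell in HF samples of batch 2 and 0 rose. Dcn and Lum are on this list and also among the fibroblast markers. Thbs1, the matrix glycoprotein thrombospondin 1, averaged 648 ± 108 CPM in LF (SD, n = 4) and 293 ± 90.8 CPM in HF samples (SD, n = 3), a log2 fold change of −1.15 ± 0.18 (edgeR adjusted p = 0.0106). Fbn1, the microfibril gene, gave −0.93 ± 0.19 (edgeR adjusted p = 0.0242), and Hspg2 and Nid2, which encode basement membrane components, gave −0.61 and −0.40. Thbs1, Fbn1 and Nid2 rose in HFLF against HF samples of batch 2, by 1.09, 0.61 and 0.50. In batch 1, 0 of 15 passed between HF and LF samples, and Thbs1 gave −1.07 ± 0.23 (edgeR adjusted p = 0.137) with groups that did not overlap. It was 1 of 2 among these 15 genes whose HF samples all lay below the LF samples, beside 7.33% of all genes.

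Of 8 collagen receptor genes, 1 fell between HF and LF samples of batch 2. Itga10, an integrin chain that binds collagen, gave −0.71 ± 0.17 (edgeR adjusted p = 0.0363) and rose by 0.73 in HFLF against HF samples (edgeR adjusted p = 0.0177). Itga2 gave −0.23 ± 0.10 (edgeR adjusted p = 0.117) and Itgb1, the shared beta chain, 0.11 ± 0.07 (edgeR adjusted p = 0.260). None of the 6 tested genes of procollagen secretion and processing and none of the 9 of collagen breakdown passed between HF and LF samples of batch 2 in edgeR's test, with 0 and 1 at an unadjusted p under 0.05. Their medians were 0.05 and −0.02. Mia3, which helps load procollagen into transport vesicles, gave −0.10 ± 0.07 (edgeR adjusted p = 0.340), Pcolce, an enhancer of procollagen cleavage, gave −0.37 ± 0.21, and Timp2, an inhibitor of matrix metalloproteinases, −0.25 ± 0.11 (edgeR adjusted p = 0.131).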

How the data were processed

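The authors deposited counts of reads per gene locus, without normalization, for 23 samples. Per the submitters' processing notes and the study's methods, read pairs from stranded, ribosomal RNA-depleted libraries were trimmed with cutadapt 1.2.1, mapped to mm10 with STAR 2.5 and counted with featureCounts 1.5.0-p1. The study itself used DESeq2. The annotation and the settings for strand and multi-mapped reads are not given in the sources used here. Counts were fitted with edgeR 4.0.16 (R 4.3.3; TMM factors, filterByExpr, quasi-likelihood test, 3 diets in 1 fit per batch, or both batches with batch as a covariate). A call needed a fold above 1.2 and a p under 0.05 after Benjamini-Hochberg adjustment over all genes tested. edgeR's test gives no SE, so the SE of a log2 fold change was its absolute value divided by the square root of the F statistic. Fits were tested on simulated data. RPKM used GENCODE M21 exon lengths. Alternatives were DESeq2 1.42.0, RLE factors, no expression filter, 2 groups per fit, no fold limit, a block on replicate number and leaving out each sample. Members, lists and named genes (the highest per length, those called, the lowest p per comparison and list) were chosen with earlier results of these data known. Fkbp14, Hspg2, Nid2 and the further collagen genes named were added after their values were seen. Floors cover counting error only.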

Additional observations from a re-analysis of the deposited data

Results flagged for a closer look

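Within groups of 4 or 5 samples, 84 sets of values were checked for a sample that stands far from the others, and 4 were found. Chance alone flags about 1 in 20 such sets. In batch 1, LF replicate 3 was high for Col3a1 (12.2 CPM, the next LF sample being at 6.73), for Col1a1 (4.72 CPM, next 2.30) and for the summed fibrillar collagens (30.0 CPM, next 17.4), which contain both genes. HFLF replicate 2 of batch 1 was high for the summed other collagens (126 CPM, next 79.8). The part of RNA from other cell types in these values was not tested. None of 3 interactions between diet and batch passed for a collagen gene.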

How the results depend on the processing

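With RLE factors, no expression filter, 2 groups per fit or no fold limit, the counts of collagen genes called were the same within 1.5 times. DESeq2 moved the count for HF against LF in batch 2 to 5. Whether replicate numbers pair the samples was not settled. Same-numbered samples of a batch correlated at −0.38 to 0.39 (median 0.069) in batch 1 and −0.12 to 0.39 (median 0.077) in batch 2. Differently numbered samples of different diets correlated at −0.44 to 0.45 (median −0.017) and −0.33 to 0.28 (median −0.043). These ranges overlap widely, so they cannot exclude a pairing. With the replicate block, HF against LF gave 1 call in batch 1, 8 in batch 2 and 5 over both batches, HFLF against HF gave 2 over both, Col6a1 turned to −0.25 (HF against LF, batch 1) and Col18a1 to −0.023 (HFLF against HF, batch 2).

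Leaving out 1 sample at a time gave 0 to 1 calls for HF against LF in batch 1, 0 to 9 in batch 2 and 2 to 5 over both, and 0 to 5 for HFLF against HF in batch 2 and 0 to 6 over both. The cause of these moves was not tested. Single genes were followed in these fits only if named for their level, a call or the lowest p, so the sign of other collagen genes was not examined. Among the genes followed, log2 fold changes that changed sign had these ranges. For HF against LF in batch 1, Col3a1 ran from −0.56 to 0.46, Col1a1 from −1.12 to 0.19, Col1a2 from −0.76 to 0.37, Col5a1 from −1.17 to 0.041, Col6a1 from −0.50 to 0.54, Col18a1 from −0.32 to 0.10, Col6a4 from −1.71 to 0.081, Col12a1 from −0.10 to 0.90 and Col4a6 from −0.33 to 1.39. In batch 2 Col11a2 ran from −0.33 to 0.023. For HFLF against HF in batch 1, Col16a1 ran from −0.18 to 0.35, Col20a1 from −0.27 to 0.49, Col18a1 from −0.021 to 0.40 and Col25a1 from −0.13 to 0.61. In batch 2, Col1a2 ran from −0.31 to 0.48, Col4a1 from −0.22 to 0.37, Col6a1 from −0.31 to 0.47, Col18a1 from −0.027 to 0.20, Col6a4 from −0.69 to 0.80, Col4a6 from −0.92 to 0.28 and Col5a1 from −0.24 to 0.77. For HFLF against LF, Col18a1 ran from −0.020 to 0.20 in batch 1 and Col16a1 from −0.048 to 0.085 in batch 2. The 14 collagen genes with at most 159 counts in all were too low to test.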
